A study of Mus musculus with 34 samples.

Results

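CEBPα binding was compared between resting and activated macrophages with the CEBPα peak list of each treatment, which are 2 of the 30 ChIP-seq peak lists of the series. Peaks that overlapped by 1 bp or more were taken as 1 locus. The 12891 CEBPα peaks of vehicle-treated (Veh) cells and the 14802 CEBPα peaks of cells treated with Kdo2 lipid A (KLA) made 18720 loci. Of these, 5832 held a peak in the KLA list alone (KLA-only, 31.2%), 8965 held a peak in both lists (shared, 47.9%) and 3923 held a peak in the Veh list alone (Veh-only, 21%).

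The series has 34 samples and maps AP-1 family members (monomers) in thioglycollate elicited macrophages (TGEMs), which are recruited to the mouse peritoneum by an irritant and then cultured. The cells of the CEBPα, PU.1 and main AP-1 lists came from male mice labelled C57Bl/6EiJ (C57BL/6J in the study's text), 8 weeks old by its methods, with no engineered allele. Veh was PBS, and KLA, a lipid that activates TLR4, was given for 1 h. Further AP-1 lists came from BALB/cJ TGEMs, and PPARγ was mapped in Veh.

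CEBPα is a bZIP factor that binds DNA as a dimer and is needed for the development of the myeloid lineage. In macrophages it is known to bind together with PU.1, an ETS factor that marks the regulatory elements of this cell type, and with AP-1, the other large bZIP family. TLR4 signalling activates NFκB and the MAP kinases within minutes, and with them the transcription of cytokine genes and of AP-1 members such as Fos, JunB and ATF3.

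The DNA under the loci was read from GRCm38 (mm10), plus strand, to show what the classes look like in sequence. The first 5 stretches are among the strongest loci of each class that hold a CEBP motif and lie outside UTRs. The last 3 were chosen after their values were seen: the largest rise of a shared locus with both a CEBP and a TRE motif, the largest fall of one with a CEBP motif, and the strongest KLA-only locus with a kB motif. Each is the 200 bp around the centre. Capitals mark exact matches on either strand to CEBP (TTGCNNAA), to the AP-1 motif TRE (TGACTCA) and to the NFκB consensus (kB).
KLA-only, Lcp1 intron, chr14:75185831-75186030: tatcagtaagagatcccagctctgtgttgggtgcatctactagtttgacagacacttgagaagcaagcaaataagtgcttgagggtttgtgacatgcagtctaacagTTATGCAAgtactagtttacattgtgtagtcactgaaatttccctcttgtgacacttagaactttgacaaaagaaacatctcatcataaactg
shared, nearest gene Rhob, chr12:8432941-8433140: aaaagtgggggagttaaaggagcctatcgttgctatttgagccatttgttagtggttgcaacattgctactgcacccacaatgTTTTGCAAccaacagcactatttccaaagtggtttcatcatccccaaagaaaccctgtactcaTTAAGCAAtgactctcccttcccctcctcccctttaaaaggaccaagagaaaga
shared, nearest gene Gpcpd1, chr2:132599242-132599441: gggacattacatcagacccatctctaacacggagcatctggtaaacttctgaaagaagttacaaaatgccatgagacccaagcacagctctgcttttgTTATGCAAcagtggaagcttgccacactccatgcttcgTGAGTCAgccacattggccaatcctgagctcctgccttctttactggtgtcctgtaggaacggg
Veh-only, Rere intron, chr4:150583513-150583712: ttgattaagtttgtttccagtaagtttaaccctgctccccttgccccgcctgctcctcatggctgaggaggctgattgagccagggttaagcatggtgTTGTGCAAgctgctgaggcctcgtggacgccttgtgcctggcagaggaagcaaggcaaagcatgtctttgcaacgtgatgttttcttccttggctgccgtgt
Veh-only, nearest gene Mmp12, chr9:7336778-7336977: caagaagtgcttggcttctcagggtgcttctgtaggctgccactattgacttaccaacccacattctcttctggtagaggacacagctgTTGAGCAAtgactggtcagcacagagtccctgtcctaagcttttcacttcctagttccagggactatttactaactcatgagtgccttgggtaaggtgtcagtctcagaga
shared and rising, nearest gene Slc36a3, chr11:55134935-55135134: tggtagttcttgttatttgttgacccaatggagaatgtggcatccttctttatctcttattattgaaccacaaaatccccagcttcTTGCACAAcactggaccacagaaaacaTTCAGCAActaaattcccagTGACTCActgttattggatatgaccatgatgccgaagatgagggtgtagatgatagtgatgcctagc
shared and falling, Zbtb16 intron, chr9:48745026-48745225: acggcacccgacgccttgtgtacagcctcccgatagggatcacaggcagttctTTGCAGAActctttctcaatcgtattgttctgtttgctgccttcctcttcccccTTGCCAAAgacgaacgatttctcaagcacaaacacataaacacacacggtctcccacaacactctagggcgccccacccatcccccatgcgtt
KLA-only, Fyb promoter, chr15:6569088-6569287: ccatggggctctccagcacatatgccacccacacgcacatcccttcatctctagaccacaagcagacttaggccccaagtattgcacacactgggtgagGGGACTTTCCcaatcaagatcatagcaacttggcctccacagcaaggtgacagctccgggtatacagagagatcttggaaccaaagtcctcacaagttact

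A CEBP motif lay at position 108 of the Lcp1 stretch, counted from 1 at the left end, close to the centre. The Gpcpd1 locus, bound in both treatments, had a CEBP motif at position 99 and a TRE at position 137. The Slc36a3 locus had CEBP motifs at positions 87 and 114 and a TRE at position 134. The Fyb stretch held no exact CEBP or TRE motif but a kB motif at position 100.

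Most resting CEBPα sites were still found after KLA, and the sites found under 1 treatment were mainly weak ones. A KLA peak lay at 69.6% of the Veh peaks (68.8 to 70.4), and a Veh peak at 60.6% of the KLA peaks (59.8 to 61.4). The count of a peak is not scaled to library size, so each peak was ranked by its count within its own list, as a percentile from 0 to 100. The median percentile was 63.9 in KLA and 63.8 in Veh for shared loci, 30.8 in KLA for KLA-only loci and 22.5 in Veh for Veh-only loci. In counts, the KLA-only loci had a median of 52 (29 to 274) and the Veh-only loci a median of 50 (30 to 262). In bulk cells, a site bound in more cells cannot be told apart from a site bound more often per cell. Each treatment has 1 list in which the authors combined replicate experiments, so there is no replicate error, and the 95% intervals below cover counting over loci only.

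The strongest KLA sites lacked a Veh peak more often than the strongest Veh sites lacked a KLA peak. In the lowest 10 points of percentile, 71.0% of KLA loci (68.7 to 73.2) had no Veh peak and 73.7% of Veh loci (71.3 to 76.1) had no KLA peak. In the highest 10 points, 83 of 1489 KLA loci (5.57%, 4.52 to 6.86) had no Veh peak, but only 8 of 1290 Veh loci (0.620%, 0.315 to 1.22) had no KLA peak. The percentile at which a site drops out of a list is set by the list's own cutoff, so a site missing from a list may still be bound below it. The KLA list is the longer, which alone gives more KLA-only than Veh-only loci, and with peaks at or above the median count of both lists there were 2189 and 2192. That setting put 1 unscaled count cutoff on lists with medians of 69 in KLA and 76 in Veh. It therefore does not decide which class is larger.

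**Figure D1:**
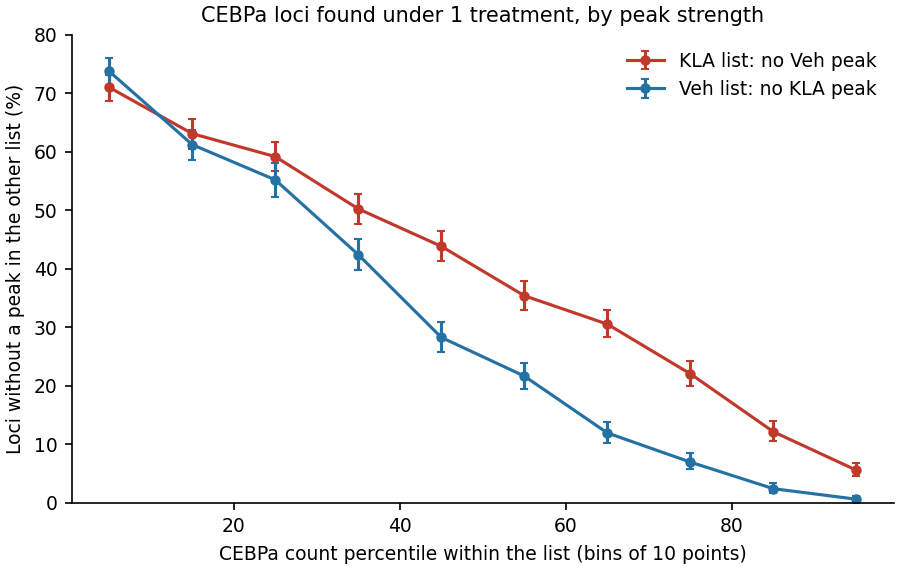
Share of CEBPα loci without a peak in the other treatment's list (y axis, %) against the CEBPα count percentile within the list that holds the locus (x axis, bins of 10 points), with 95% Wilson intervals, for the KLA list (red) and the Veh list (blue). Both curves start above 70% and fall with strength, and the KLA curve ends at 5.57% where the Veh curve ends at 0.620%.

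The strongest KLA-only locus had a count of 274 (percentile 99.2) and lay at chr11:117946445-117946647, 22.6 kb from the TSS of Socs3, which encodes a feedback inhibitor of cytokine signalling. The peak lists of ATF3, Jun, JunD and FosL2 already covered this site in Veh, and all 6 monomers covered it in KLA. The third strongest (count 235) lay in the promoter of Fyb, an adaptor protein of haematopoietic cells, at chr15:6569085-6569289. It held ATF3 and JunD in Veh and, like the Socs3 site, all 6 monomers in KLA.

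The strongest Veh-only locus had a count of 262 (percentile 98.6) and lay at chr1:107496820-107497044, 14.5 kb upstream of Serpinb2, a protease inhibitor of activated macrophages. ATF3, Jun, JunD, FosL2 and PU.1 peaks covered it in Veh and none of these factors did in KLA. The second (count 188) lay in an intron of Rere at chr4:150583509-150583715 and likewise held ATF3, Jun, JunD and PU.1 in Veh and none in KLA. The third (count 185) lay 7.50 kb upstream of Mmp12, the macrophage elastase, at chr9:7336765-7336990, and kept ATF3 and PU.1. Among the strongest shared loci, those nearest to Rhob and Gpcpd1 had counts of 405 and 391 in KLA and of 404 and 369 in Veh, and both held all 6 monomers in KLA.

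The classes lay at similar distances from genes. A locus was called promoter when its centre was within 1 kb of an annotated TSS, and 17.4% of KLA-only (16.5 to 18.4), 18.4% of shared (17.7 to 19.3) and 20.2% of Veh-only loci (18.9 to 21.4) met this. The KLA-only minus Veh-only difference was -2.74 points (-4.34 to -1.16), but -0.501 points (-2.80 to 1.74) in the strongest 50% of each list. Introns held between 44.0% and 45.0% of each class, and intergenic DNA between 31.5% and 34.2%. The median distance to the nearest protein-coding TSS was 11.5 kb for KLA-only, 11.4 kb for shared and 10.4 kb for Veh-only loci.

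The distance from sites found under 1 treatment to the other list was also described. A Veh peak was centred within 5 kb of 30.1% of KLA-only loci and within 50 kb of 80.1%. For Veh-only loci, a KLA peak was within 5 kb of 26.9% and within 50 kb of 73.7%. Of the 3198 genes nearest to a KLA-only locus (within 100 kb), 57.8% were also nearest to a shared locus, and 1104 had neither a shared nor a Veh-only locus. Shares for other positions or genes were not computed, so no particular closeness is read from these values.

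The rank of CEBPα sites bound in both treatments was compared next. The percentiles of the 8965 shared loci correlated with a Spearman coefficient of 0.709 between the lists, given as a description across loci of the same genome. The median absolute shift was 11.2 points. With a shift of at least 25 points, 994 loci (11.1% of shared loci) rose in KLA and 1018 (11.4%) fell, and the other 6953 are called steady. With 1 list per treatment of unequal length, these shifts cannot be told apart from variation between experiments.

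The largest rise was at chr2:156720026-156720273 in the promoter of Dlgap4, from a count of 35 (percentile 3.56) in Veh to 183 (94.3) in KLA. The sites nearest to Slc36a3 (percentile 0.927 to 88.3), Klf3 (1.70 to 88.0), P4ha2 (8.30 to 94.3) and Foxp1 (1.70 to 86.1) followed. In Veh, 4 of these 5 sites overlapped no AP-1 peak, the exception being the Foxp1 site with ATF3 and Jun. In KLA, each of the 5 held ATF3, Jun, JunD and Fos.

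The largest fall was at chr9:48744998-48745253 in an intron of Zbtb16, a zinc finger repressor, from a count of 154 (percentile 87.3) in Veh to 38 (9.94) in KLA. It was followed by the sites nearest to Tspan14 (79.9 to 8.46), Schip1 (75.7 to 4.28), Rere (85.8 to 14.8) and Poc1b (89.9 to 19.4). All 5 overlapped an AP-1 peak in Veh, and 4 of them a PU.1 peak. In KLA the Schip1 and Poc1b sites held no AP-1 peak, and none of the 5 held Jun. Rere was thus named both among the falls and among the strongest Veh-only loci.

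AP-1 monomers separated KLA-only from Veh-only loci most clearly in KLA. At least 1 of the 6 monomers had a KLA peak at 84.1% of KLA-only (83.1 to 85.0), 83.8% of shared (83.1 to 84.6) and 45.1% of Veh-only loci (43.5 to 46.7), against 75.8% of all loci. KLA-only thus exceeded Veh-only by 39.0 points (37.2 to 40.8). KLA-only minus shared was 0.239 points (-0.978 to 1.44), although shared loci had far stronger CEBPα peaks. The lists come from different ChIPs on pools of cells, and whether both factors were on the same DNA molecule was not measured.

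ATF3, a bZIP factor induced by TLR4, had a KLA peak at 78.1% of KLA-only and 39.4% of Veh-only loci, against 70.4% of all loci. JunD, the constitutive Jun family member, followed with 73.3% and 31.3%, against 64.5% of all loci. The immediate-early factor Fos was at 60.2% and 21.8%, against 51.3% of all loci. Jun was at 50.7% and 17.2%, JunB at 41.3% and 12.5%, and FosL2 at 32.3% and 9.07%, against 44.4%, 35.3% and 27.2% of all loci. The KLA-only share was 1.98 times the Veh-only share for ATF3, 2.34 times for JunD and 2.76 times for Fos. This ratio was 2.95 with Jun, 3.31 with JunB and 3.56 with FosL2, the monomer with the fewest peaks in KLA. At shared loci each of the 6 shares lay within 1.84 points of its KLA-only value.

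In Veh the order turned around. An AP-1 peak was already present at 45.8% of KLA-only loci (44.5 to 47.1), before CEBPα was called there, at 58.1% of Veh-only loci (56.5 to 59.6) and at 81.7% of shared loci (80.9 to 82.5), against 65.6% of all loci. The KLA-only minus Veh-only difference was -12.3 points (-14.3 to -10.3). ATF3 in Veh was at 40.3% of KLA-only and 49.7% of Veh-only loci, against 58.9% of all loci. JunD was at 28.5% and 37.5%, and Jun at 23.0% and 30.3%, against 46.5% and 39.2% of all loci. FosL2 was less frequent, at 6.17% and 10.7%, against 13% of all loci. Fos and JunB had only 1804 and 462 peaks in Veh and lay at 2.93% and 1.37% of all loci.

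**Figure D2:**
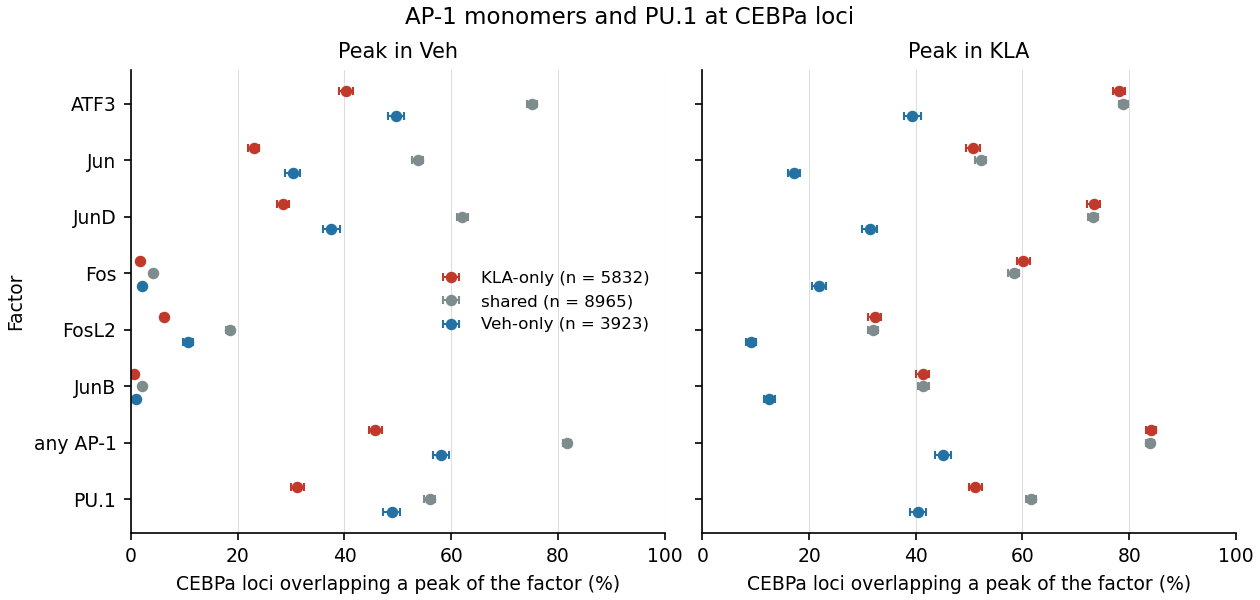
Share of CEBPα loci (x axis, %) that overlapped a peak of each AP-1 monomer, of any of the 6 monomers and of PU.1 (y axis) in Veh (left) and in KLA (right), with 95% Wilson intervals. KLA-only loci (red, n = 5832) lie below Veh-only loci (blue, n = 3923) in Veh, and move up to the shared loci (grey, n = 8965) for AP-1 in KLA.

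The BALB/cJ AP-1 lists, which come from another strain, gave the same order at the C57BL/6J CEBPα loci. In KLA, ATF3 was at 70.9% of KLA-only and 39.9% of Veh-only loci, JunD at 65.3% and 32.9%, Fos at 74.7% and 37.5%, JunB at 56.6% and 21.1%, and Jun at 30.5% and 11.8%. Any AP-1 here meant ATF3, Jun, JunD and JunB in Veh, and these with Fos in KLA, without FosL2. It is therefore not the same set as in C57BL/6J, nor the same in both treatments. With these lists the KLA-only share of any AP-1 exceeded the Veh-only share by 32.9 points (31.1 to 34.7) in KLA. In Veh it differed from the Veh-only share by -7.45 points (-9.47 to -5.43). CEBPα itself was not mapped in BALB/cJ in the lists used here.

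New CEBPα sites often held an AP-1 peak that was new as well. A locus was called AP-1 gained when any monomer had a peak in KLA and none had one in Veh. This held for 39.8% of KLA-only (38.6 to 41.1), 8.05% of shared (7.51 to 8.63) and 4.92% of Veh-only loci (4.29 to 5.64), against 17.3% of all loci. The reverse, AP-1 lost, held for 1.53%, 5.90% and 17.9%, against 7.05% of all loci. A further 44.3% of KLA-only loci kept AP-1 from Veh to KLA, and 14.4% had none in either, against 58.5% and 17.1% of all loci. No AP-1 peak in either treatment was found at 37.0% of Veh-only loci.

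The same order was seen within the shared loci, where CEBPα was bound in both treatments. AP-1 was gained at 21.1% of the loci that rose (18.7 to 23.8) and at 4.13% of those that fell (3.07 to 5.53), a difference of 17.0 points (14.2 to 19.9), or 8.34 points (2.69 to 14.3) in the strongest 50% of each list. It was lost at 0.604% of the former and 21.3% of the latter. Jun had a KLA peak at 70.1% of risers and 17.0% of fallers, and FosL2 at 46.8% and 7.86%. In Veh, by contrast, the shares with any AP-1 peak had overlapping intervals, at 75.1% (72.3 to 77.6) and 76.1% (73.4 to 78.6).

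**Figure D3:**
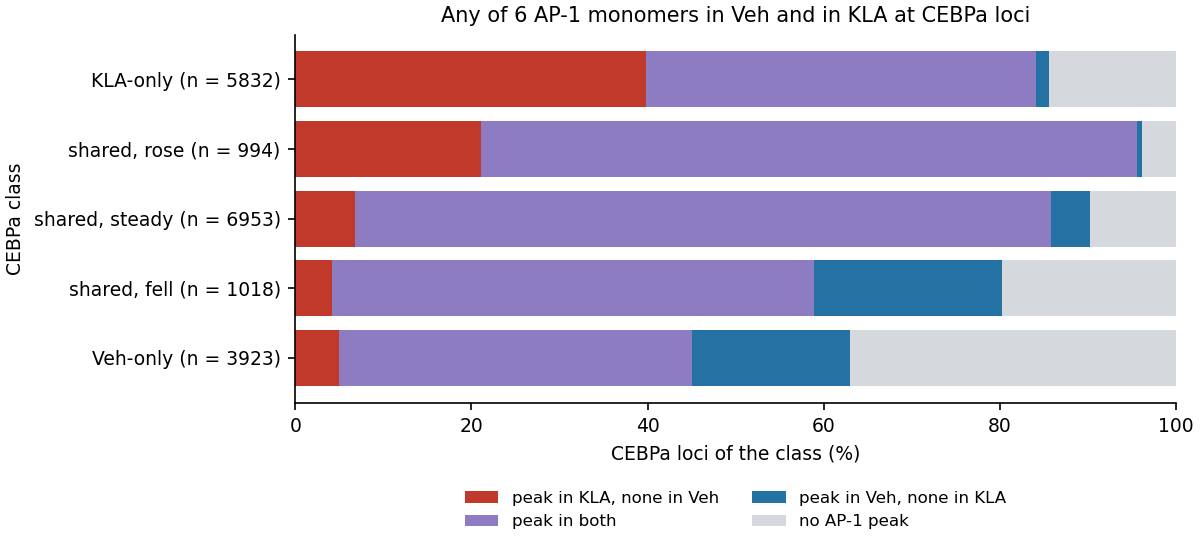
Share of CEBPα loci (x axis, %) in each class (y axis) at which any of 6 AP-1 monomers had a peak in KLA and not in Veh (red), in both (purple), in Veh and not in KLA (blue) or in neither (grey). The red part shrinks from 39.8% of KLA-only loci to 4.92% of Veh-only loci, with the shared loci that rose at 21.1%.

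The number of monomers per site followed the same pattern. In KLA, at least 4 of the 6 monomers were present at 52.6% of KLA-only and 52.5% of shared loci, but at 16.3% of Veh-only loci. The share over all loci was 45.0%. All 6 were present at 1248 KLA-only loci (21.4%), at 22.5% of shared loci and at 207 Veh-only loci (5.28%), against 18.5% of all loci. Among the shared loci, 72.8% of risers and 16.9% of fallers held at least 4. In Veh, at least 4 monomers were present at 5.14% of KLA-only, 17.4% of shared and 8.39% of Veh-only loci, against 11.7% of all loci.

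Strength also moved together across factors. Over the shared loci that held a peak of a factor in both treatments, the CEBPα percentile shift correlated with the factor's own shift with a Spearman coefficient of 0.584 for JunD (n = 5048), 0.564 for PU.1 (n = 4586), 0.473 for ATF3 (n = 6108) and 0.473 for Jun (n = 3526). These are descriptions across loci, which share the same libraries and chromatin. The JunD counts had a median of 50 in Veh and 277 in KLA, and the PU.1 counts 259 in Veh and 62 in KLA. These counts are not scaled to depth, and the part of this difference in the presence calls was not tested.

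The presence of AP-1 rose with CEBPα strength among the new sites, as it did in the other classes. In the lowest 10 points of percentile, 69.4% of KLA-only loci held an AP-1 peak in KLA, and in the highest 10 points 83 of 83 did. AP-1 was gained at 32.0% and 59.0% of these. Shared loci, ranked by KLA percentile, held AP-1 in KLA at 53.2% and 98.2% in the same bins. AP-1 was gained at 7.58% and 3.98% of these shared loci. Veh-only loci held AP-1 in Veh at 47.2% in the lowest bin and at 80.6% between 80 and 90. Veh-only loci of matching strength held AP-1 in KLA less often, at 38.4% in the lowest bin and 51.6% of the 31 loci between 80 and 90. Within bins of percentile the difference between KLA-only and Veh-only was 36.8 points (34.9 to 38.6).

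PU.1, the lineage factor, differed between KLA-only and Veh-only loci in the same directions as AP-1, by less in KLA and by more in Veh. In KLA it was at 51.2% of KLA-only (49.9 to 52.5), 61.6% of shared (60.6 to 62.6) and 40.4% of Veh-only loci (38.8 to 41.9), against 53.9% of all loci. In Veh it was at 31.2%, 56.0% and 48.8%, against 46.7% of all loci. The KLA-only minus Veh-only difference was 10.8 points in KLA (8.82 to 12.8), or 5.86 points with overlap set to centres within 100 bp, and -17.7 points in Veh (-19.6 to -15.7). PU.1 was gained at 21.8% of KLA-only and 3.42% of Veh-only loci, and lost at 1.82% and 11.9%. Over all loci it was gained at 12.5% and lost at 5.37%. Among shared loci, PU.1 was at 35.8% of risers and 60.6% of fallers in Veh, and at 59.6% and 48.8% in KLA.

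Sites with PU.1 mostly also carried AP-1. In KLA, AP-1 and PU.1 lay together at 48.4% of KLA-only loci, AP-1 without PU.1 at 35.7%, PU.1 without AP-1 at 2.76% and neither at 13.2%. Over all loci these shares were 48.1%, 27.7%, 5.81% and 18.4%, so the share with both factors was near that of all loci. At Veh-only loci in KLA, neither factor was found at 42.3%, up from 29.0% in Veh. Over all loci, neither was found at 26.5% in Veh. PPARγ, a lipid-sensing nuclear receptor mapped in Veh alone, was at 34.5% of KLA-only, 62.8% of shared and 43.2% of Veh-only loci, against 49.9% of all loci.

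PU.1's own sites served as the comparison, and this comparison was added after the values were seen. Of 51581 PU.1 loci, joined by the same rule, 19.5% were KLA-only, 59.3% shared and 21.2% Veh-only. The KLA-only share of CEBPα was 11.7 points higher (10.9 to 12.4), its shared share differed by -11.4 points (-12.2 to -10.6) and its Veh-only share by -0.284 points (-0.962 to 0.401). The AP-1 monomers with long lists in both treatments had higher KLA-only shares than CEBPα, 35.3% for Jun, 43.7% for ATF3 and 45.4% for JunD. At the PU.1 loci that overlapped no CEBPα peak, AP-1 was gained at 31.9% of KLA-only loci (30.9 to 33.0) and 4.27% of Veh-only loci (3.89 to 4.69). The gain at KLA-only loci was 7.90 points more frequent for CEBPα (6.27 to 9.53). Any AP-1 peak in KLA was at 49.7% of these PU.1 KLA-only loci, 34.4 points below the CEBPα KLA-only loci (32.9 to 35.8). New AP-1 peaks were thus more frequent at KLA-only than at Veh-only loci of either factor. At shared loci they were less frequent for CEBPα, 8.05% against 13.5%, a difference of -5.42 points (-6.12 to -4.69). A locus with AP-1 in Veh cannot count as gained. Such loci were 81.7% of shared CEBPα and 38.1% of shared PU.1 loci, and 45.8% and 20.7% of the KLA-only loci. The gain among loci free of AP-1 in Veh was not compared. In Veh, any AP-1 at the PU.1 loci was higher in the KLA-only than in the Veh-only class, by 6.75 points (5.62 to 7.88), where the difference at CEBPα loci was -12.3 points.

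The motifs under the loci differed between the classes. Over all loci, an exact CEBP motif lay in the central 200 bp of 41.2%, against 8.23% of windows of the same length 1 kb to either side and 9.38% of genome windows. It was most frequent at shared loci (49.3%, 48.2 to 50.3), then at Veh-only (37.4%, 35.9 to 38.9) and KLA-only loci (31.5%, 30.3 to 32.7). KLA-only minus Veh-only was -5.91 points (-7.83 to -3.98), and -10.0 points in the strongest 50% of each list. The palindrome TTGCGCAA, a perfect site for a C/EBP dimer, was at 0.532% of KLA-only, 2.20% of shared and 1.05% of Veh-only loci.

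The TRE, the palindromic AP-1 site, had the opposite order between the classes found under 1 treatment. It was at 20.7% of KLA-only (19.7 to 21.8), 16.3% of shared (15.6 to 17.1) and 9.07% of Veh-only loci (8.22 to 10.0), against 16.2% of all loci and 3.13% of genome windows. The KLA-only share exceeded the Veh-only share by 11.6 points (10.2 to 13.0), by 17.8 points in the strongest 50% of each list and by 7.54 points when only the central 100 bp were searched. Among shared loci the TRE was at 27.6% of risers and 3.54% of fallers, a difference of 24.0 points. The fallers' share was close to that of the windows to either side, 3.73%. The CRE (TGACGTCA), the other AP-1 site, was at 0.600% or less of each class.

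Around the centre the CEBP and TRE motifs were spread differently. In the 20 bp just left of the centre, a CEBP motif lay at 10.5% of KLA-only, 19.1% of shared and 14.0% of Veh-only loci, and it had fallen to 1.92%, 2.69% and 2.06% at 50 bp. The TRE at KLA-only loci was flat over the same range, at 3.03% beside the centre and 2.67% at 50 bp.

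**Figure D4:**
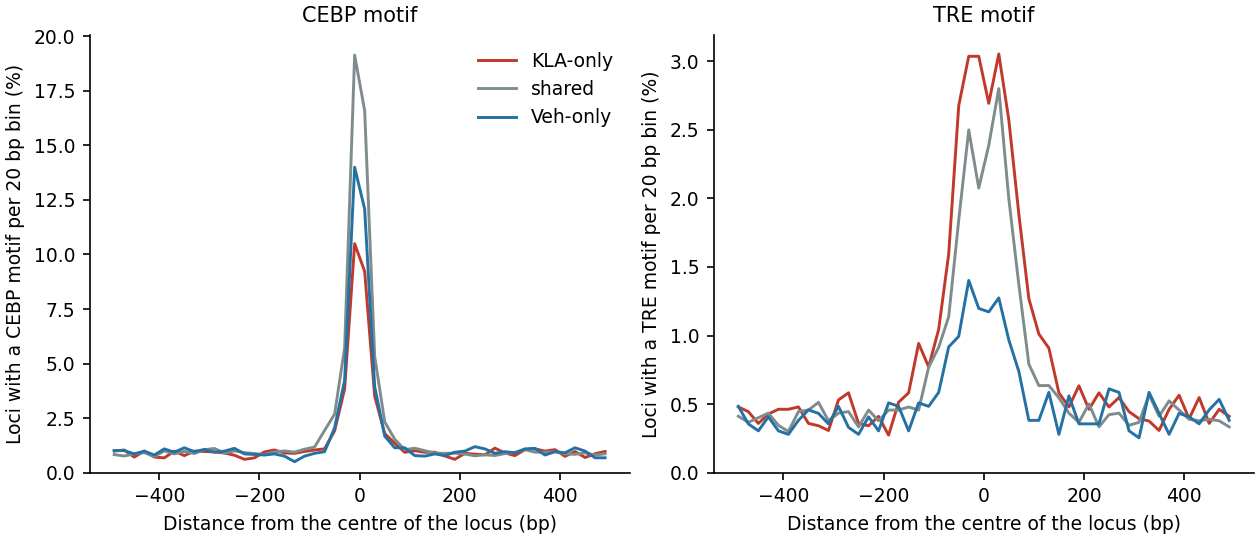
Share of CEBPα loci with an exact CEBP motif (left) or TRE (right) per 20 bp bin (y axes, %, different scales) against the distance from the centre of the locus (x axis, bp), for KLA-only (red), shared (grey) and Veh-only loci (blue). The CEBP motif peaks at the centre, at 19.1% for shared and 10.5% for KLA-only loci. The TRE forms a broad hill, with 3.03% just left of the centre at KLA-only loci and 1.20% at Veh-only loci.

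The CEBP motif was more frequent where no AP-1 peak was listed. KLA-only loci without an AP-1 peak in KLA held a CEBP motif at 54.5% (51.3 to 57.7, n = 928), and those with an AP-1 peak at 27.1% (25.9 to 28.4, n = 4904). At Veh-only loci the shares were 49.6% without AP-1 in KLA and 22.4% with it. The TRE was at 23.9% of KLA-only loci with AP-1 and 3.56% of those without. Where AP-1 was already bound in Veh and kept, the TRE was at 30.5% and the CEBP motif at 20.2% of KLA-only loci, and where AP-1 was gained they were at 16.7% and 34.7%. Neither motif was found at 52.9% of KLA-only loci.

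The kB motif, bound by NFκB, was rare and concentrated in the KLA-only class. It was at 2.14% of KLA-only loci (1.80 to 2.55), 0.323% of shared loci and 0.153% of Veh-only loci, against 0.855% of all loci and 0.153% of genome windows. Where AP-1 was gained it was at 3.23% of KLA-only loci. Among the shared loci, 13 of 994 risers and 0 of 1018 fallers held one, and 0 of 1018 allows a share of up to 0.376% (Wilson). The PU.1 motif ACTTCCT ran the other way, with 14.3% of KLA-only, 19.4% of shared and 21.6% of Veh-only loci, against 18.3% of all loci. The IRF consensus was at 4.51% of KLA-only and 2.70% of Veh-only loci, against 3.81% of all loci and 3.31% of genome windows. The Runx motif TGTGGTT was at 7.01% and 7.85%, against 7.58% of all loci, and the interval of the difference included 0. GC content did not set the classes apart, with medians between 46% and 47%.

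Genes of the TLR4 response carried new CEBPα sites, as did other macrophage genes, such as 16 of 23 surface receptors (69.6%). A gene was counted when a locus lay in it or within 5 kb, which held for KLA-only loci at 13.5%, for shared loci at 19.5% and for Veh-only loci at 11.4% of 21911 protein-coding genes. The 9 lists below, of 180 genes, were chosen with earlier results of these data known and are well-studied macrophage genes, so their shares are a description. A CEBPα locus of any class was at 31.0% of protein-coding genes, but at 47.1% to 94.1% of the genes of each list. Of the loci of these lists, 166 were KLA-only, and 151 of these held an AP-1 peak in KLA, against 84.1% of all KLA-only loci. Of their 225 shared loci 199 did, and of their 60 Veh-only loci 33 did. Over all shared and all Veh-only loci the shares were 83.8% and 45.1%. The loci named are the 1 to 3 strongest of their list and class, or are said to have been chosen after their values were seen, and distances are to the nearest protein-coding TSS.

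Among 29 TLR4-induced cytokines and effectors, 17 genes (58.6%) had a KLA-only locus, 19 a shared locus and 2 (6.90%) a Veh-only locus. Over all KLA-only loci, AP-1 was present in KLA at 84.1% and gained at 39.8%. All 25 KLA-only loci of the list held AP-1 in KLA, and at 16 of them AP-1 was gained. The strongest was 1.73 kb upstream of Il1a, the gene of interleukin-1α, with a count of 201 (percentile 95.9) at chr2:129311581-129311824. It had no AP-1 peak in Veh and JunD and Fos in KLA. Next came the promoters of Il23a, a subunit of interleukin-23 (count 193, percentile 95.3), and of Tnf (count 179, percentile 93.7). The Il23a site held ATF3 in Veh and 5 monomers in KLA, and the Tnf site ATF3 and JunD in Veh and all 6 monomers in KLA. The strongest Veh-only locus of the list lay 1.29 kb downstream of the TSS of Osm, the gene of oncostatin M (percentile 59.6).

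The NFκB subunits and feedback inhibitors had the highest share of genes with a KLA-only locus, 13 of 17 (76.5%), against 6 with a Veh-only locus. The strongest was in an intron of Nfkb1, the gene of the p50 subunit, with a count of 163 (percentile 91.3) at chr3:135670607-135670826, where no AP-1 peak was listed in Veh and all 6 were listed in KLA. Nfkb1 held 8 KLA-only loci. Traf1 held 5 and Tnip1 4. A pair of KLA-only loci lay in the promoter of Zc3h12a, an RNase that degrades cytokine mRNAs (percentiles 89.4 and 86.1). Nfkbia, which encodes the inhibitor IκBα, had a Veh-only locus in its promoter (percentile 55.9) and KLA-only loci 3.14 and 3.82 kb downstream, which were chosen after their values were seen.

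Of 17 interferon response and Socs genes, 8 had a KLA-only locus, 4 a shared locus and 0 a Veh-only locus. The strongest lay in the promoter of Cish, a feedback inhibitor of cytokine receptors (count 120, percentile 80.7), and the next was 1.17 kb upstream of Irf1 (percentile 58.0), both with a TRE. The AP-1 and other immediate-early genes had a KLA-only locus at 11 of 29 genes and a Veh-only locus at 1, Fosl1. Dusp4, a MAP kinase phosphatase, held a shared locus that rose from percentile 28.8 to 87.2, and was chosen after its values were seen.

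The list named C/EBP held Cebpa, Cebpb, Cebpd, Cebpe, Cebpg, Cebpz and Ddit3. Of these 7 genes, 1 had a KLA-only locus (14.3%, near the 13.5% of all genes), 5 a shared and 3 a Veh-only locus. Cebpz is among the 5, by a shared locus nearest to Ndufaf7. The single KLA-only locus lay at Cebpd and was weak (count 33, percentile 3.03). The other sites of this list were chosen after their values were seen. At the promoter of Cebpa itself the shared site fell from a count of 125 (percentile 78.8) to 66 (47.4), and the shared site upstream of Cebpb stood at 69.1 in Veh and 48.5 in KLA. The shared site in the promoter of Ddit3, which encodes the inhibitory family member CHOP, stood at percentile 82.0 in Veh and 72.1 in KLA. Within 5 kb of Ddit3, but nearest to the TSS of Mbd6, were a shared site at 59.6 in Veh and 89.0 in KLA and a Veh-only site at 28.8.

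Lipid, iron and arginine metabolism was the list with the highest share of genes with a Veh-only locus, 10 of 18 (55.6%), and 7 genes had a KLA-only locus. It held 12 Veh-only and 14 KLA-only loci, and the lineage transcription factors and the surface receptors held 12 Veh-only loci each. The strongest Veh-only locus lay between Apoe and Apoc1, genes of apolipoproteins (count 138, percentile 83.0), and the next in Scd2, a fatty acid desaturase (count 126, percentile 79.2). Neither held AP-1 or PU.1 in either treatment. Acsl1, which activates fatty acids, had 2 Veh-only loci and a shared locus whose percentile fell by 63.6 points. In contrast, the ferritin gene Fth1 had a KLA-only locus of count 223 (percentile 97.4) 2.65 kb upstream, with no AP-1 peak in Veh and all 6 monomers in KLA, and the lipoprotein lipase gene Lpl a KLA-only locus at percentile 94.0. Lpl and the shared Acsl1 locus were chosen after their values were seen.

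The genes of macrophage identity had sites of every class. Shared loci were at 14 of 19 lineage transcription factors, 19 of 23 surface receptors and 12 of 19 granule and oxidase genes, KLA-only loci at 8, 16 and 5, and Veh-only loci at 7, 8 and 4. The strongest KLA-only loci were in an intron of Mitf, a bHLH factor (percentile 90.2), upstream of the C-type lectin receptor Clec4d (83.1) and in Cybb, the gene of the NADPH oxidase subunit (78.8). The strongest Veh-only loci were in Tfec (62.6), in the promoter of the inhibitory Fc receptor gene Fcgr2b (67.4) and in the lysozyme gene Lyz2 (count 164, percentile 89.6). The Lyz2 site held Jun and JunD in Veh and no AP-1 in KLA, with PU.1 in both.

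**Figure D5:**
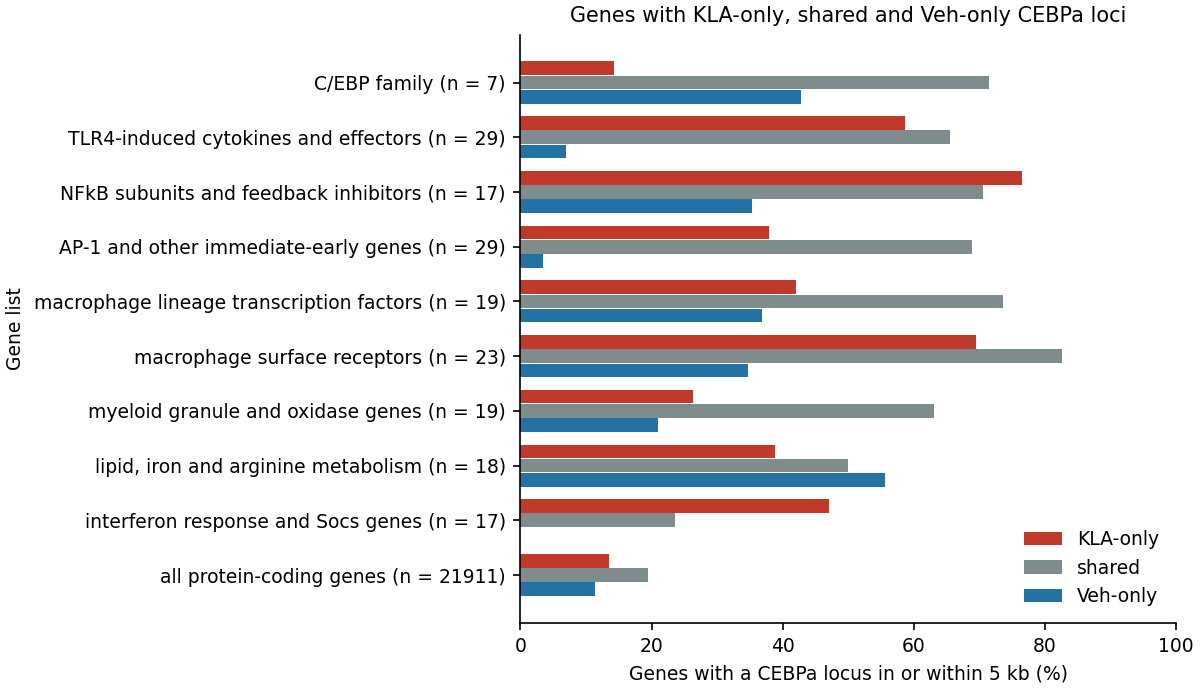
Share of genes (x axis, %) with a KLA-only (red), shared (grey) or Veh-only (blue) CEBPα locus in the gene or within 5 kb, for 9 gene lists and for all protein-coding genes (y axis, with the number of genes). The KLA-only bar is longest for the NFκB genes (76.5%), the interferon and Socs genes have no Veh-only bar, and the lipid, iron and arginine genes have the longest Veh-only bar (55.6%).

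By nearest protein-coding TSS within 100 kb, the genes with most KLA-only loci were Cd44, the hyaluronan receptor, with 13, and Tnfaip3, which encodes the NFκB inhibitor A20, with 12, followed by Arhgap26, Asap1, Dock10 and Etv6 with 10 each. Of the 13 Cd44 loci, 11 held AP-1 in KLA, and of the 12 Tnfaip3 loci, 11 did, with AP-1 gained at 6 and 8. The shares over all KLA-only loci were 84.1% and 39.8%, and nothing particular to these genes is read from the counts. Cd44 had 1 Veh-only locus and Tnfaip3 had 3. Mbnl1, an RNA-binding splicing regulator, had the most Veh-only loci, with 9 beside 5 KLA-only and 6 shared loci. It was followed by Cpeb4 and Fgd4 with 6 and Cd93 and Elmsan1 with 5, a number that Itpr1, Maml2 and Pde4d also reached. AP-1 was gained at 0 of the Veh-only loci of Mbnl1, Cpeb4, Fgd4, Cd93 and Elmsan1, where it was gained at 4.92% of all Veh-only loci. Long genes and gene-poor surroundings raise such counts, and they were not scaled to length.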

How the data were processed

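ChIP-seq of CEBPα (antibody sc-61), AP-1 monomers, PU.1 and PPARγ in TGEMs was analysed from 26 peak lists. Per the study's methods and labels, the authors mapped reads to mm10 with Bowtie2, called peaks with HOMER against input, and kept those below an IDR of 0.05 between replicate experiments. Each peak has a deposited count, a whole number not scaled to library size, and a deposited score, the scaled IDR (540 to 1000). The counts of the CEBPα lists summed to 1181792 in Veh and 1257585 in KLA. Whether starts are counted from 0 or 1 is not given in the sources used here. No peak passed the end of a GRCm38 chromosome, and 1 CEBPα Veh peak on an unplaced scaffold was left out.

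Python 3.11.15 with numpy 2.4.6, pandas 2.3.3, statsmodels 0.14.6 and pysam 0.24.0 computed every value. Loci were connected sets of peaks that overlapped by 1 bp, ranked by their strongest peak. A factor was present when a peak of its list overlapped by 1 bp. Genes and TSSs were those of GENCODE M21. Shares have 95% Wilson intervals and differences 95% Newcombe intervals (within bins, a weighted difference). A difference counts as held when its interval leaves out 0. Loci, not mice, are the unit. Motifs were exact matches on both strands in the central 200 bp, overlapping motifs were each counted, and kB and IRF are 1 fixed consensus each.

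Named were the 3 strongest loci of each class, the 5 largest rises and falls, the strongest loci of 9 gene lists (178 of 180 genes matched) and the genes with most loci. Of the strongest loci, 2 are not reported here. The members and lists were chosen with earlier results of these data known. The overlap, motif and interval steps were tested on simulated data. The PPARγ knockout lists, input samples and the BALB/cJ Fos Veh list were not used here. The alternatives were other overlap rules, stricter or equal CEBPα lists, distal loci, other promoter or motif definitions, BALB/cJ AP-1 lists and bins of strength.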

Additional observations from a re-analysis of the deposited data

How the results depend on the processing

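Of 96 alternatives over the 12 main results, 88 kept the direction and the side of the threshold, or for counts of loci stayed within 1.5 times. No result reversed. With the strongest 50% of each CEBPα list there were 2612 KLA-only, 4787 shared and 1658 Veh-only loci, and with peaks at or above the median count of both lists there were 2189, 4790 and 2192. Both settings keep fewer peaks by construction, and the median count is 1 unscaled cutoff for both lists. With lists of equal length, KLA-only and Veh-only loci numbered 4495 and 4496, which equal length fixes to be nearly the same. The promoter share of KLA-only minus Veh-only loci was -0.501 points (-2.80 to 1.74) in the strongest 50% and -1.39 points (-3.61 to 0.822) above the common count, and the cause was not tested. The other differences kept their sign and an interval without 0 in every alternative run for them. The difference in any AP-1 in KLA ran from 32.9 to 41.9 points, that in AP-1 gained from 28.1 to 36.4, that in PU.1 in KLA from 5.86 to 13.0 and that in the TRE from 7.54 to 17.8. The lowest values for any AP-1 in KLA and for AP-1 gained came from the BALB/cJ lists. Those lists had no FosL2, and Fos in KLA alone, so a Fos peak already present in Veh could not be seen there. AP-1 gained at risers minus fallers ran from 8.34 to 17.5 points. No paired analysis was possible because each treatment has 1 list with replicates combined, which also leaves no estimate of the variation between mice. The counts are not scaled to depth, so a weak site missing from a list was not shown to be unbound.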
